A study of Homo sapiens with 6 samples.

Results

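Ribosome assembly and nucleolar factors are the proteins that fold, cut, modify and export the precursors of the ribosomal subunits, and a list of 60 such genes was followed here in HSN748-treated cells. Members were found by gene symbol in the deposited count table of 13244 genes, which held 59 of them. PWP2, a subunit of the UTP-B complex, had no row there and was not analysed here. The cells were MOLM14, an established human acute myeloid leukemia line with the genotype FLT3 ITD, grown in RPMI with fetal bovine serum. RNA-Seq covered 3 cultures given DMSO (replicates 1, 2 and 3) and 3 cultures given 2 nM HSN748, a kinase inhibitor, (replicates 7, 8 and 9), all for 24 hours. The study describes its replicates as biologically independent, and all come from a single line. The question was which assembly genes changed with HSN748, and whether those of the small and the large subunit did so to a like degree.

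Ribosomes begin in the nucleolus, where RNA polymerase I transcribes a long precursor RNA and small nucleolar ribonucleoproteins (snoRNPs) mark it for methylation and pseudouridylation. The small subunit processome, built in part from the UTP-A and UTP-B complexes, assembles around the end that is made first, while the PeBoW complex and many other nucleolar factors mature the large subunit. Late factors then release, proofread and export both particles, and growing cells, leukemia cells among them, spend much of their resources on this route.

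Library totals ranged from 35277785 to 59279430 counts, and 13084 genes passed the filter on low counts, all 59 measured members among them. The lowest count of a member in any library was 15, for WDR46, and the lowest of any other member was 430, for RRP9, so that counting error was small for all members but WDR46. Levels are CPM, the count of a gene scaled by TMM to a common library size, levels of different genes are compared only as CPM per kilobase, and fold changes are log2 ratios, HSN748 over DMSO, each with the SE of its estimate. A gene was called at an adjusted p under 0.05, from the quasi-likelihood test of edgeR with p-values adjusted by Benjamini-Hochberg over all genes tested. With 3 cultures against 3 an exact permutation test cannot go below p = 0.1, so none is given per gene. Marker levels alone are scaled to the total count of the library, without TMM. All 9 myeloid and AML markers listed were in the table. Their summed level was 1508 to 1530 CPM in DMSO controls and 3354 to 3493 CPM in HSN748-treated cells. None of 4 T cell or 4 erythroid markers was in the table. CD79A and PAX5, 2 of 4 B cell markers, summed to 48.6 to 53.2 CPM with DMSO and 15.0 to 20.0 CPM with HSN748. KRT8 and KRT18, 2 of 4 epithelial markers, summed to 5.28 to 6.80 and 8.45 to 10.5 CPM. The highest level of a single B cell marker was 52.9 CPM, nearly the whole of the highest B cell sum. A single myeloid or AML marker reached 1340 CPM, so these sums can rest on single genes. The part of these shifts in the results below was not tested. In bulk RNA a lower level in each cell cannot be told apart from a change in the mix of cells, and a level here is a share of the library, not an amount per cell.

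Expression of the assembly genes fell broadly. Of the 59 members, 56 were called lower, 2 were called higher (NOP53 and UTP6) and 1 was not called (NOP10). Among all 13084 genes tested, 36.5% were called lower and 36.6% higher. By more than 2-fold, 50 of the members were lower, against 14.9% of all genes, and 9 by more than 4-fold, against 3.98%. These 9 were UTP20, LYAR, EBNA1BP2, NOP16, RRP9, MRTO4, BRIX1, RRP12 and TSR1. The CPM ranges of the groups did not overlap for 58 of the 59, NOP10 being the exception, while the same held for 75.4% of all genes. The median log2 fold change of the members was -1.67, with the middle 50% between -1.91 and -1.17 and the extremes at -2.75 and 1.03, whereas the median of all genes was 0.01. At that median a member was left with 31.5% of its DMSO level, and 41 of the 59 lay in the lowest 10% of fold changes of all genes.

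**Figure D1:**
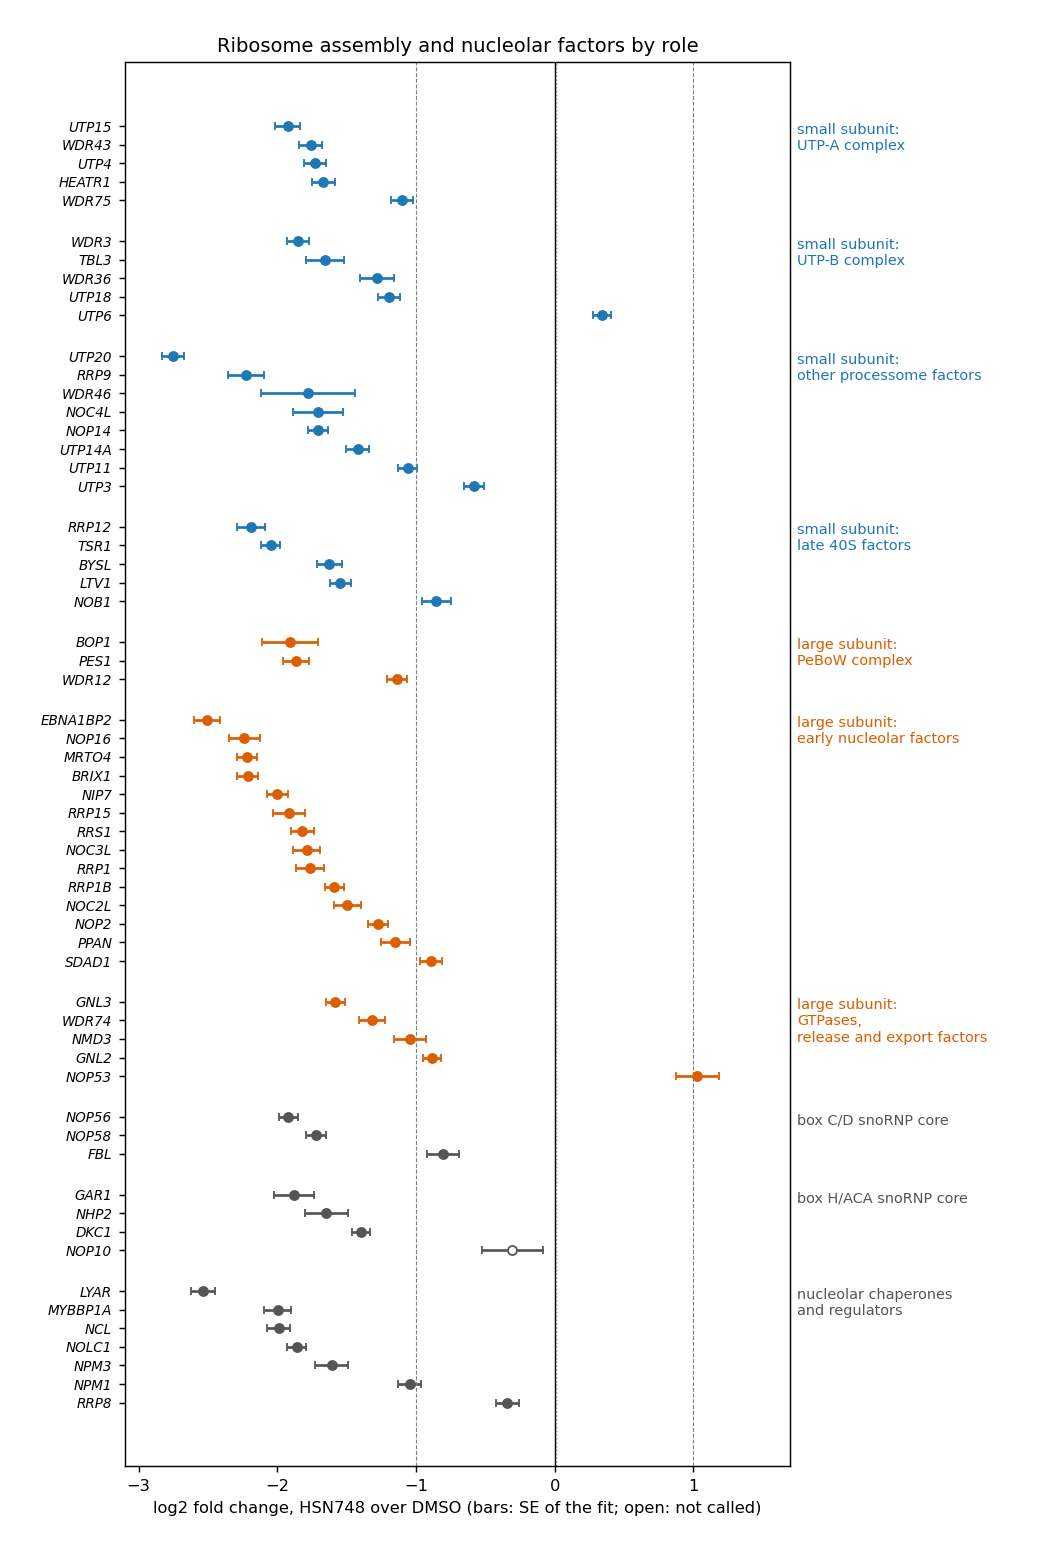
Log2 fold change of HSN748 over DMSO on the x axis for each of the 59 measured members, grouped by role, with bars for the SE of the fit (3 cultures per group) and dashed lines at 2-fold. All points lie left of 0 except UTP6 at 0.34 and NOP53 at 1.03, and the open point marks NOP10, which was not called.

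The share of all counts that went to the members was 1.37%, 1.40% and 1.37% in the DMSO cultures. It was 0.555%, 0.569% and 0.579% in the HSN748 cultures. NCL and NPM1, both abundant nucleolar proteins, held 31.0% to 34.0% of the members' counts in every library of either group, so the summed share rests in good part on this pair. The median CPM over members, on which they weigh no more than others, went from 137, 146 and 152 in the DMSO cultures to 46.7, 44.8 and 52.3 in the HSN748 cultures. Neither the level of a gene nor its length ordered the fold changes: over the 59 members, which share their libraries, Spearman's rho was -0.05 with CPM per kilobase in DMSO and -0.03 with gene length, given as a description.

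Promoter sequence was read for the members because so many moved together. RefSeq windows of 250 bases before to 50 after the start (GRCh38.p14) were matched by symbol for 53 of the 59 members. The E-box CACGTG, the palindrome bound by MYC with MAX among other factors, was searched for on both strands. It was found in 20 of the 53 windows (37.7%), against 10.3% of the 9916 windows matched to genes tested and 7.44% of all 27305 windows. The motif CCGGAAG, the core bound by ETS factors, stood in 19 (35.8%) against 20.0% and 10.7%, and GCGCATGCG, read by NRF1, in 4 (7.55%) against 3.93% and 2.10%. The 3 motifs do not contain each other. A match is a description of letters, and binding was not measured. The following 90-base stretches run from 60 bases before the RefSeq start to 29 after its base, on the strand of the gene, with the E-box in capitals. UTP20, RRP9 and MRTO4 are shown as members with large falls and an E-box near the start, WDR43 and NOP14 as members near the median, FBL as the called member with an E-box that fell least, and NOP10 as the member with an E-box that was not called, its other E-box lying outside the stretch. UTP6 and NOP53, the members called higher, have none.
UTP20 (chr12:101280045-101280134, plus strand): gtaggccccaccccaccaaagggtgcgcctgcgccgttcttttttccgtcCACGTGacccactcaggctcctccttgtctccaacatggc
RRP9 (chr3:51941875-51941964, minus strand): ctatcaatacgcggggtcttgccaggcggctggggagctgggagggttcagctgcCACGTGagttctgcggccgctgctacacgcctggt
MRTO4 (chr1:19251745-19251834, plus strand): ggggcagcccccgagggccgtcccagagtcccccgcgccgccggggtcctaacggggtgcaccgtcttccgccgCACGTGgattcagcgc
WDR43 (chr2:28894607-28894696, plus strand): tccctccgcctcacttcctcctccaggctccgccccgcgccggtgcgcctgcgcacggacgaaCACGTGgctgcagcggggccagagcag
NOP14 (chr4:2963377-2963466, minus strand): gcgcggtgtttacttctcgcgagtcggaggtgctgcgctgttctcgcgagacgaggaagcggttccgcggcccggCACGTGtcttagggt
FBL (chr19:39846350-39846439, minus strand): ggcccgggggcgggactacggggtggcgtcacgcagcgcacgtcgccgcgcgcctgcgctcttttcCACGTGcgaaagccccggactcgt
NOP10 (chr15:34343107-34343196, minus strand): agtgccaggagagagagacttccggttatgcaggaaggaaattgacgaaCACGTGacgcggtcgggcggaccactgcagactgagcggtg
UTP6 (chr17:31901679-31901768, minus strand): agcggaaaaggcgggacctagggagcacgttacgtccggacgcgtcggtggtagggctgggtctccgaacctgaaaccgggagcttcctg
NOP53 (chr19:47745486-47745575, plus strand): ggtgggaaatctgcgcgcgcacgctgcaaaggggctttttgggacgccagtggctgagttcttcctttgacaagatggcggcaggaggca

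The E-boxes of the members lay close to the start. In 17 of the 20 windows with an E-box it was within 50 bases of the start, which is 85.0% of them, against 40.1% of the E-box windows of all genes tested. Over all matched windows, 32.1% of members and 4.15% of genes tested had an E-box that near, a count chosen after the positions were seen. Presence of the motif did not order the falls: the 20 members with an E-box had a median log2 fold change of -1.72 and ranged from -2.75 to -0.31, and the 33 without had -1.61 and ranged from -2.54 to 1.03. NOP10 and UTP18, the members with 2 E-boxes, were at -0.31 and -1.19. MYC itself was at 401, 370 and 440 CPM in the DMSO cultures and at 92.0, 87.6 and 99.3 CPM in the HSN748 cultures. It is in none of the lists followed here, and the study had already reported it as downregulated. The part of MYC in these changes was not tested.

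**Figure D2:**
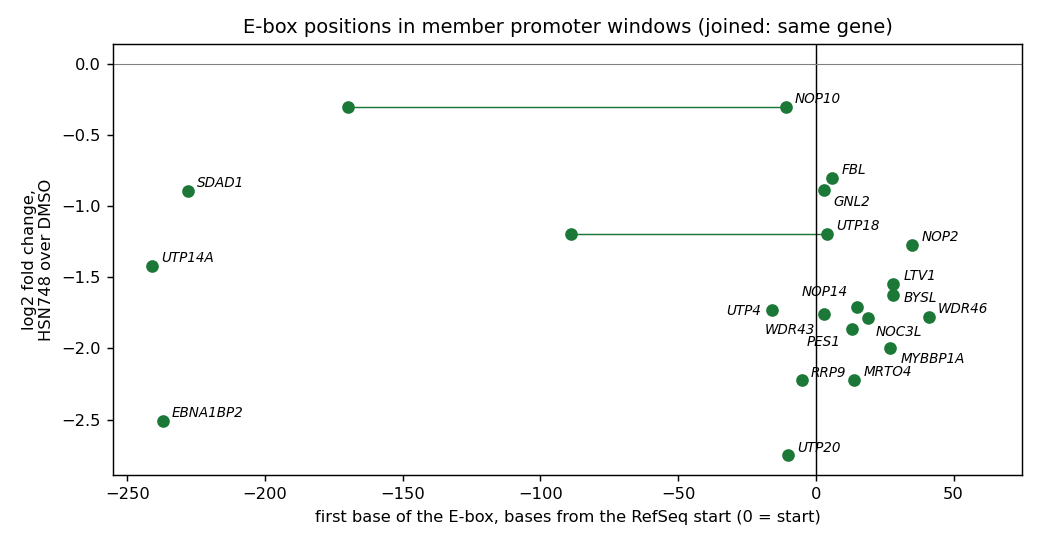
Log2 fold change (y axis) against the distance of the E-box from the RefSeq start in bases (x axis, 0 is the start) for the 20 members with an E-box, with lines joining sites of the same gene. Sites cluster around the start in 17 genes, and members there range from -2.75 (UTP20) to -0.31 (NOP10).

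The small subunit processome held the largest fall of the whole module. UTP20, a very large scaffold protein of the processome, was at 354, 374 and 337 CPM in DMSO controls and at 52.0, 50.1 and 56.2 CPM in HSN748-treated cells. The cultures of each group lay close together and far from those of the other, with 14.9% of the level left (log2 fold change -2.75, SE 0.08, adjusted p = 2.9e-08). RRP9, a protein of the snoRNP that pairs with the precursor inside the processome, fell from 55.1, 46.5 and 64.5 CPM to 11.2, 11.4 and 12.9 CPM (-2.23, adjusted p = 8.3e-07). All 8 members of this class outside UTP-A and UTP-B were called lower, 7 of them by more than 2-fold, with a median of -1.71. NOP14 and NOC4L, which act as partners in yeast, were both at -1.71, UTP14A, whose yeast counterpart activates a helicase of the processome, was at -1.42, and UTP11 was at -1.06. The smallest fall was that of UTP3, from 63.3, 66.5 and 61.7 CPM to 41.5, 44.9 and 41.5 CPM (-0.58, SE 0.07, adjusted p = 1.0e-04). Its groups stood apart, but with counts scaled to 11 reference genes its fold change was -0.10 and was not called. WDR46 was barely detected, at 1.67, 1.32 and 2.26 CPM with DMSO and 0.724, 0.505 and 0.303 CPM with HSN748 (-1.78, SE 0.34, adjusted p = 0.0014). The table places it at 5 loci, on chromosome 6 and its alternate sequences, and the authors' counting may have split its reads.

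UTP-A, the complex that binds the precursor first, was lower in all 5 of its members, each by more than 2-fold, with a median of -1.73. UTP15 fell most, from 74.2, 81.7 and 68.4 CPM to 19.0, 20.4 and 19.6 CPM (-1.93, SE 0.09, adjusted p = 2.3e-07). WDR75 fell least, from 137, 151 and 131 CPM to 65.5, 67.4 and 62.6 CPM (-1.10, SE 0.08, adjusted p = 2.5e-06). Between these values lay WDR43 at -1.76, UTP4 at -1.73 and HEATR1 at -1.67. HEATR1 shares exonic bases with LGALS8 on the other strand, which went from a mean of 107 to 300.0 CPM. The summed overlap of their listed exons was 99.1% of HEATR1. That share is an upper limit, since an exon listed more than once was counted each time. Without strand in the library kit, reads from the shared bases cannot be told apart. UTP4 has a second locus in the table.

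UTP-B was the complex with the widest range of fold changes. WDR3 fell from 233, 256 and 220 CPM to 65.7, 62.2 and 68.5 CPM (-1.85, SE 0.08, adjusted p = 1.6e-07). UTP6, a member of the same complex, went the other way, from 186, 191 and 180 CPM to 235, 241 and 231 CPM, a small gain (0.34, SE 0.06, adjusted p = 0.0011) with no overlap between the groups. Per kilobase, UTP6 stood at 1.84, 1.73 and 1.89 times WDR3 in the DMSO cultures. In the HSN748 cultures it stood at 8.25, 8.96 and 7.77 times. The pairs for this and all later ratios between members were chosen after the fold changes were seen. Such ratios restate those fold changes and are descriptions with no test. TBL3 at -1.66, WDR36 at -1.28 and UTP18 at -1.19 lay in between, so that 4 of 5 measured members fell by more than 2-fold. The direction of UTP6 was the same under every scaling tried, with a gain of 0.82 on the log2 scale when 11 reference genes set the scale.

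The factors that act on the small subunit late were all lower, 4 of 5 by more than 2-fold. RRP12, a large repeat protein needed for export, fell from 165, 146 and 173 CPM to 35.1, 31.8 and 38.8 CPM (-2.19, SE 0.10, adjusted p = 2.1e-07). NOB1, the endonuclease that makes the final cut of the small subunit RNA, fell less, from 82.5, 78.4 and 91.7 CPM to 46.0, 41.3 and 52.3 CPM (-0.85, SE 0.10, adjusted p = 7.4e-05). TSR1, related to GTPases, was at -2.05, BYSL at -1.62 and LTV1 at -1.55. Of the exonic bases of TSR1, at most 54.0% are shared with SRR on the other strand. SRR was at a mean of 5.35 CPM with DMSO against 251 CPM for TSR1.

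**Figure D3:**
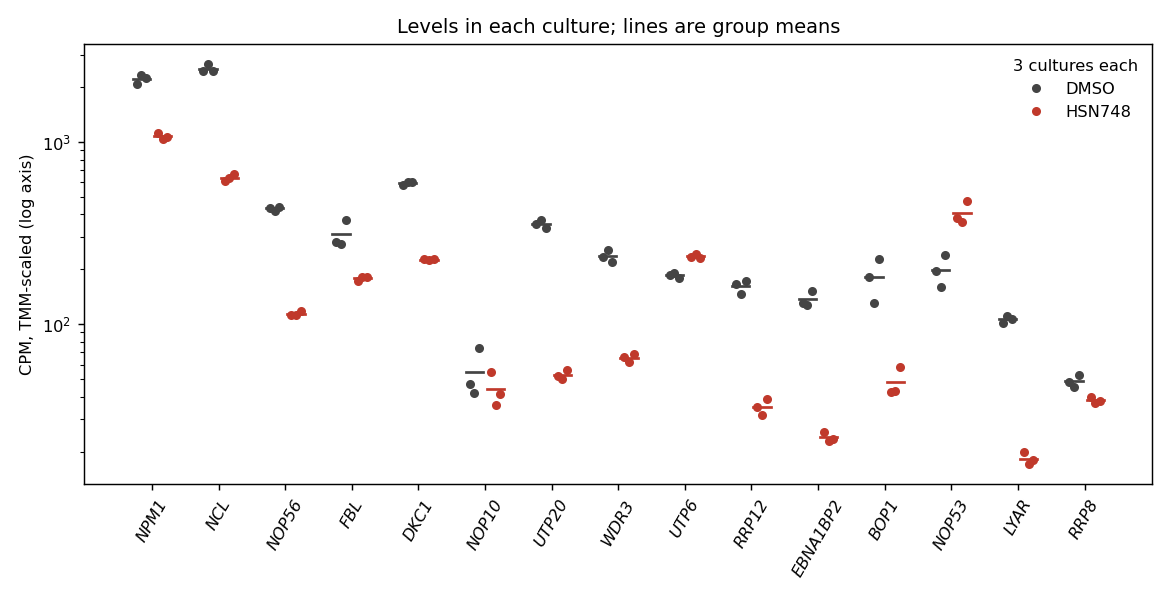
CPM on a log axis in each culture for 15 members, with 3 DMSO and 3 HSN748 points per gene and lines at the group means. HSN748 points lie below DMSO points for all genes shown except UTP6 and NOP53, where they lie above, and NOP10, where the groups overlap.

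Among large subunit factors, all 14 early nucleolar proteins were called lower, 13 by more than 2-fold and 4 by more than 4-fold, with a median of -1.80. EBNA1BP2 fell from 131, 127 and 152 CPM to 25.7, 22.9 and 23.4 CPM (-2.51, SE 0.10, adjusted p = 8.4e-08). NOP16 at -2.24, MRTO4, a stand-in for a ribosomal stalk protein, at -2.22 and BRIX1 at -2.21 came next. SDAD1 fell least, from 133, 143 and 122 CPM to 73.1, 69.6 and 72.1 CPM (-0.89, SE 0.08, adjusted p = 9.0e-06). The other 9 ranged from NIP7 at -1.999 to PPAN at -1.15. These include RRP15 at -1.92, RRS1, which helps to load the 5S particle in yeast, at -1.82, NOC3L at -1.79, RRP1 at -1.77, RRP1B at -1.59, NOC2L at -1.49 and NOP2, an RNA methyltransferase, at -1.27.

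The PeBoW complex joins PES1, BOP1 and WDR12 around the large subunit precursor, and all 3 transcripts fell by more than 2-fold. BOP1 went from 181, 131 and 228 CPM to 42.5, 43.2 and 58.0 CPM (-1.91, SE 0.20, adjusted p = 3.2e-05), with a wide spread among the DMSO cultures. WDR12 went from 194, 214 and 193 CPM to 93.6, 92.7 and 87.0 CPM (-1.14, SE 0.07, adjusted p = 1.3e-06). PES1 was at -1.87. Measured per kilobase, BOP1 over PES1 was 1.12, 0.894 and 1.28 with DMSO and 1.003, 0.999 and 1.21 with HSN748, ranges that overlap. WDR12 over PES1 was 0.362, 0.438 and 0.325 with DMSO and 0.665, 0.646 and 0.547 with HSN748, where they do not. Both ratios follow from the fold changes above.

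GTPases, release and export factors of the large subunit had the highest median of the 10 role classes, -1.05, and held the member that rose most. GNL3 (nucleostemin) fell from 267, 288 and 258 CPM to 91.5, 89.7 and 90.4 CPM (-1.58, SE 0.07, adjusted p = 1.6e-07). GNL2, a GTPase that prepares the particle for export, fell from 161, 166 and 158 CPM to 85.3, 87.7 and 89.2 CPM (-0.88, SE 0.06, adjusted p = 2.6e-06). WDR74 was at -1.32 and NMD3, the export adaptor, at -1.05. NOP53, which in yeast brings the RNA exosome to the large subunit precursor, was at 196, 161 and 240 CPM in DMSO controls and 380, 365 and 474 CPM in HSN748-treated cells. Every HSN748 culture was above every DMSO culture. The gain (1.03, SE 0.15, adjusted p = 2.9e-04) was called under every alternative, from 0.90 to 1.51 on the log2 scale. NOP53 over NMD3, both per kilobase, was 3.64, 2.44 and 5.08 with DMSO and 14.2, 13.2 and 18.0 with HSN748.

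With the members classed as they were here, the median fold changes of the small and large subunit classes were nearly equal. The 23 small subunit members had a median log2 fold change of -1.67 (range -2.75 to 0.34), with 22 called lower, 20 of them beyond 2-fold, and 1 higher. The 22 large subunit members had -1.68 (range -2.51 to 1.03), with 21 lower, 19 of them beyond 2-fold, and 1 higher. Their median lies between RRP1 at -1.77 and RRP1B at -1.59, so it depends on which members are put in the class. The 14 members that serve both or belong to other structures had -1.68, with 13 lower, 11 of them beyond 2-fold, and 1 not called. RRP8, at -0.34, was classed among these 14 although it acts on large subunit RNA. The medians of small and large differed by 0.01, and leaving out each culture in turn moved this difference between -0.04 and 0.08, so it had no settled sign. The difference of the median levels (log2 CPM, small minus large) within each culture did shift, from -0.25, -0.21 and -0.28 with DMSO to 0.15, 0.11 and 0.16 with HSN748. It was higher in all 3 treated cultures. These medians are not per kilobase, and they fall on different genes in the DMSO and HSN748 groups. For that reason neither their sign nor their shift measures a relative change of the classes.

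Summed levels gave a direction that depended on NOP53, so that small against large had no direction common to these measures. The sum over small subunit members was 954, 983 and 955 CPM per kilobase with DMSO and 376, 373 and 384 with HSN748. For the large subunit it was 1325, 1291 and 1412 with DMSO and 626, 613 and 703 with HSN748. The ratio of small to large was then 0.720, 0.762 and 0.676 with DMSO and 0.600, 0.609 and 0.545 with HSN748, lower in all 3 treated cultures. NOP53 alone made up 9.86%, 8.29% and 11.3% of the large subunit sum with DMSO but 40.4%, 39.6% and 44.8% with HSN748. Without NOP53 the ratio was 0.799, 0.831 and 0.762 with DMSO and 1.01, 1.01 and 0.988 with HSN748, higher in all 3. Leaving out UTP6 as well gave 0.763, 0.793 and 0.729 against 0.862, 0.857 and 0.850. Both exclusions were chosen after the values were seen, and the sums are descriptions with no test.

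**Figure D4:**
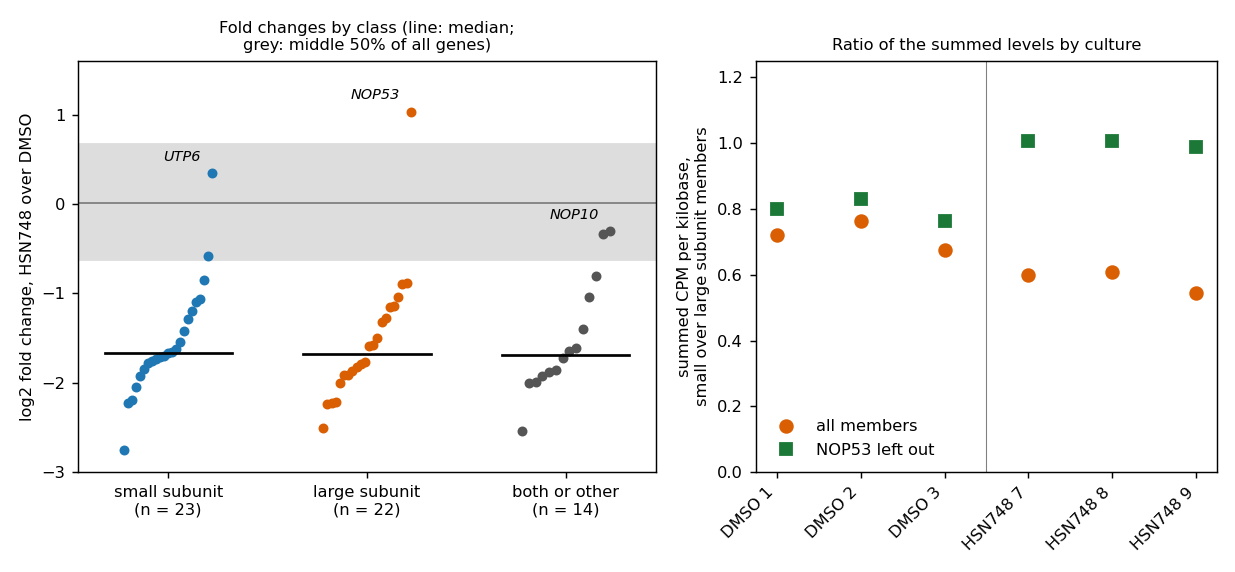
Left, log2 fold change (y axis) of each member by class, with black lines at the class medians and a grey band over the middle 50% of all genes tested. Right, the ratio of summed CPM per kilobase of small over large subunit members in each culture, which is lower with HSN748 over all members (0.600, 0.609 and 0.545) and higher once NOP53 is left out (1.01, 1.01 and 0.988).

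The core proteins of box C/D snoRNPs, which methylate the precursor, were all lower. NOP56 fell from 435, 417 and 441 CPM to 112, 112 and 118 CPM (-1.92, SE 0.07, adjusted p = 6.3e-08), and its partner NOP58 was at -1.72. FBL, the methyltransferase itself (fibrillarin), fell less, from 283, 276 and 374 CPM to 172, 181 and 182 CPM (-0.80, SE 0.12, adjusted p = 2.3e-04). Its DMSO 3 culture stood above the other two, and its reads may be split over 2 loci of the table. FBL over NOP56, per kilobase, was 0.638, 0.650 and 0.832 with DMSO and 1.51, 1.59 and 1.51 with HSN748. These core proteins were among the most abundant members, with NOP56 at 195 CPM per kilobase in DMSO controls, above 98.2% of all genes.

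Box H/ACA snoRNPs make pseudouridine, and 3 of their 4 core proteins fell by more than 2-fold. GAR1 fell from 57.3, 75.2 and 51.8 CPM to 16.6, 18.1 and 15.4 CPM (-1.88, SE 0.14, adjusted p = 4.1e-06). DKC1, the pseudouridine synthase (dyskerin), fell from 580, 599 and 600 CPM to 227, 224 and 227 CPM (-1.39, SE 0.07, adjusted p = 2.3e-07), and NHP2 was at -1.65. NOP10, the smallest of the 4 proteins, was at 47.2, 42.1 and 73.6 CPM with DMSO and 54.5, 35.8 and 41.2 CPM with HSN748. The groups overlapped and the difference was within the spread of the cultures (-0.31, SE 0.22, adjusted p = 0.24), which does not show that the level was the same. Its value was 0.18 with counts scaled to reference genes, so no direction could be given. Relative to DKC1 and per kilobase, NOP10 was at 0.688, 0.595 and 1.04 with DMSO and at 2.04, 1.35 and 1.54 with HSN748. NHP2 shares at most 87.7% of its exonic bases with RMND5B on the other strand, a gene at a mean of 22.2 CPM with DMSO.

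The chaperones and regulators of the nucleolus held its most abundant transcripts. NCL (nucleolin), an RNA-binding protein of the nucleolus, fell from 2437, 2674 and 2450 CPM to 606, 632 and 664 CPM (-1.99, SE 0.08, adjusted p = 1.4e-07). NPM1 (nucleophosmin), the chaperone that forms the outer layer of the nucleolus, fell less, from 2079, 2315 and 2248 CPM to 1112, 1040 and 1065 CPM (-1.05, SE 0.08, adjusted p = 4.7e-06). Per kilobase, NPM1 had the highest level of all members, 964 CPM in DMSO controls, with NCL next at 642, and the ratio of NPM1 to NCL went from 1.46, 1.48 and 1.57 to 3.13, 2.81 and 2.74. NPM1 has processed pseudogenes, between which the authors' counting could split reads.

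LYAR, a regulator of precursor processing, had the largest fall of this class, from 101, 111 and 106 CPM to 19.8, 17.0 and 18.1 CPM (-2.54, SE 0.09, adjusted p = 5.7e-08). MYBBP1A was at -1.998, NOLC1, a snoRNP chaperone, at -1.86 and NPM3 at -1.61. RRP8, a methyltransferase of the large subunit RNA, moved least of those called, from 48.0, 45.2 and 52.6 CPM to 40.1, 37.0 and 37.9 CPM (-0.34, SE 0.08, adjusted p = 0.0054). The groups did not overlap, but the fold change turned to 0.14 (adjusted p = 0.18) with counts scaled to reference genes and was -0.14 (adjusted p = 0.18) with upper-quartile factors, so its direction depended on the scaling.

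Assembly factors outside the 59 members moved the same way, with medians nearer 0. Their lists were chosen with earlier results of these data known. Of 28 other small subunit factors named, 27 were tested. All 27 were called lower, with a median of -1.18, led by PNO1 at -1.99 and RCL1 at -1.83. Of 35 other large subunit factors, 32 were lower and 3 (EIF6, NSA2 and RBM34) were not called, with a median of -1.11. CCDC86 had the largest fall there, from 72.9, 63.6 and 85.8 CPM to 10.4, 10.1 and 13.9 CPM (-2.69), and MAK16 was at -2.18. Of 11 snoRNP assembly factors named, which build the particles described above, 9 were tested. All 9 were lower, with a median of -1.13. RUVBL1, an ATPase of that machinery, went from 111, 113 and 117 CPM to 24.2, 22.7 and 22.5 CPM (-2.30), and NUFIP1 was at -1.81. With counts scaled to reference genes, 23 of the 27 small subunit factors and 8 of the 9 snoRNP assembly factors were still called lower, with medians of -0.71 and -0.64. Of the 35 large subunit factors 26 were then lower and 2 higher, with a median of -0.63.

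The RNA exosome, which trims the precursors, had 13 of 14 genes lower with a median of -1.12, MPHOSPH6 at -1.87 and EXOSC2 at -1.77 being the largest falls. Assembly factors of the mitochondrial ribosome, a separate route, were lower in 13 of 16, with a median of -0.87. MRM1 at -1.94 and MALSU1 at -1.57 fell most, and MTERF4 at 0.86 and NOA1 at 0.30 were called higher. Scaled to reference genes, 9 of the 14 exosome genes were lower and 1 higher (median -0.64), and 9 of the 16 mitochondrial factors were lower and 4 higher (median -0.39). Among all genes, 36.5% were called lower and 36.6% higher on the TMM scale, and these shares were not counted with reference genes.

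The calls of members held when each culture was left out in turn: in 354 of 354 refits of a member, its direction and its side of the threshold stayed. A further count left out 7 members, a choice made after seeing the data. These have more than 1 locus or a summed exon overlap with another gene of over 50%. That overlap can count an exon more than once, so the true share may be smaller. In the remaining set, 49 of 52 were called lower, with a median of -1.68. The scale itself moved with the method, as 9563 of 13084 genes were called: the median of all genes was at 0.13 with total counts, 0.21 with upper-quartile factors and 0.48 with 11 reference genes, and the median of the members moved with it, to -1.55, -1.46 and -1.19. Of the 11 reference genes, 6 were themselves called lower on the TMM scale, 1 higher and 4 not called, the largest falls being PSMB2 at -1.22 and GPI at -1.14, and every value scaled to them carries these shifts.

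**Figure D5:**
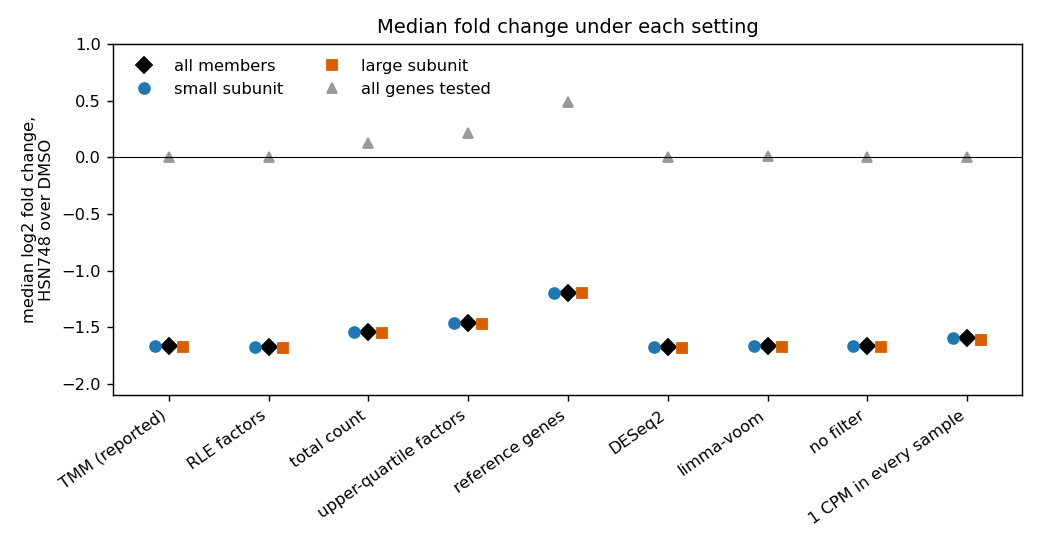
Median log2 fold change (y axis) of all members, of small and large subunit members and of all genes tested under each scaling, test and filter (x axis). Small and large lie side by side in every setting, and the members stay below all genes, while the whole scale shifts upward with total counts, upper-quartile factors and reference genes.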

How the data were processed

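TRIzol-extracted RNA of MOLM14 cultures had gone into a low-input library kit that does not mark strand. The deposited values are whole-number counts for each gene, for which the submitters' processing notes list bcl2fastq and STAR. A counter, annotation, genome build or gene filter is not given in the sources that were used here. Gene positions and the length (another deposited value, in bases of merged exons) are the authors' own. Of 12794 genes matched by symbol to GRCh38 RefSeq, 9000 had the same start, as had 39 of 59 members. The deposited normalized values and the authors' own fold changes and p-values were not used.

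The filterByExpr function took out 160 genes of low count and left 13084. TMM factors ran from 0.946 to 1.07, and edgeR 4.0.16 in R 4.3.3 fitted the quasi-likelihood test with treatment as the only term, adjusted by Benjamini-Hochberg over all genes. The SE is the size of the log2 fold change divided by the square root of F. The biological coefficient of variation was 11.2%, and totals per library are the depth behind each value. Only the edgeR fit was tested on simulated counts, in which equal numbers of genes were raised and lowered and most were left unchanged. That setting does not test the scaling where most genes are called.

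Alternatives were other scalings (RLE, upper quartile, total count and 11 reference genes), DESeq2 1.42.0, limma-voom (limma 3.58.1), other filters, each culture left out and a shorter promoter window. Promoters came from RefSeq, GRCh38.p14. Tables and figures used Python 3.11.15, pandas 2.3.3 and matplotlib 3.10.9.

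Members and lists were chosen with earlier results of these data known, and ratios between members were added after the values were seen. All members are named, with full values for the largest and smallest change of each role class, members not called or higher, the 3 highest levels per kilobase, NPM1, NCL, FBL and DKC1. Of the other lists, the 2 largest falls and up to 4 genes called higher are named.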

Additional observations from a re-analysis of the deposited data

How the results depend on the processing

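Over 825 member fold changes recomputed under the alternatives, 822 stayed on their side of the threshold and, where called, kept their direction. The exceptions were RRP8, at 0.14 with reference genes and -0.14 with upper-quartile factors, and UTP3, at -0.10 with reference genes. NOP10, not called anywhere, ran from -0.48 to 0.18. The median over all members was -1.46 with upper-quartile factors, -1.55 with total counts and -1.19 with reference genes. In the same order it was -1.46, -1.55 and -1.19 for the small subunit, -1.47, -1.55 and -1.20 for the large subunit, and -1.48, -1.56 and -1.20 for members of both or other structures. Leaving out a culture gave medians of -1.70 to -1.60 over all members and -1.69 to -1.57 for the small subunit. The difference between small and large then ran from -0.0419 (without DMSO 2) to 0.0803 (without DMSO 3) and was -0.000943 without HSN748 7. Members called lower numbered 54 to 56 and those beyond 2-fold 38 to 50 in the alternatives. No paired analysis was made, because the sample labels do not state whether cultures of the 2 groups were paired. Depth limited WDR46 alone among members. Shares of the library carry no amount per cell, and with most genes called the choice of scale was not settled by these data.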

Other observations

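The first transcribed bases were read for the matched members. A start of C followed by 4 pyrimidines at the RefSeq start stood in 6 of 53 members matched (11.3%, against 5.64% of genes tested): FBL, NOP53, EBNA1BP2, NPM1, NOB1 and UTP14A. Their median log2 fold change was -0.95, with 3 of 6 above -1, and that of the other 47 was -1.67, with 6 above -1. The class was read after the fold changes were known, most of the members above -1 have another start, and it holds EBNA1BP2 at -2.51 as well as NOP53 at 1.03, so it is a description of 6 genes, with no test.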
